A study of Rattus norvegicus with 6 samples.

Results

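The genes described here are those of the adiponectin pathway and of AMP-activated protein kinase (AMPK) in the rat heart. They were chosen by name: adiponectin itself (Adipoq), its receptors Adipor1 and Adipor2, its binding protein T-cadherin (Cdh13), the receptor adaptor Appl1, and the AMPK subunit genes Prkaa1, Prkaa2, Prkab1, Prkab2 and Prkag1. Of these 10 names, 9 had a row of their own among the 32883 genes of the table, and 8 of the 9 were expressed above the filter used for testing, 1 CPM or more (reads per 1000000 reads assigned to genes) in at least 3 libraries. Adipoq was under that filter, and Prkag1 was not analysed here.

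The data are RNA-seq libraries of heart muscle from 6 rats, 3 in each of 2 groups and 1 library for each rat. The first group held diet-induced obesity-prone (OP) rats kept for 12 months on a high-fat diet with 45% of its energy from lipids and 17% from sucrose. The second held obesity-resistant (OR) rats kept for 12 months on a standard diet with 5% from lipids and 2% from sucrose. Both lines were bred from selected Sprague Dawley breeders, all rats were 4 weeks old at the start, and the rats sequenced had been picked at random from larger groups. The study used this comparison to ask which genes are expressed differently in the myocardium of rats that model heart failure with a normal ejection fraction. Each group was 1 line on 1 diet, so an effect of the line and an effect of the diet cannot be told apart.

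Adiponectin is a hormone secreted mainly by fat cells. It binds the membrane receptors AdipoR1 and AdipoR2, which have ceramidase activity and signal partly through the adaptor APPL1, and its larger multimers bind T-cadherin on endothelial and muscle cells. In heart muscle a main target is AMPK, an energy sensor built of a catalytic alpha subunit, a scaffolding beta subunit and a gamma subunit that senses AMP. When energy is short, AMPK is phosphorylated by upstream kinases, promotes glucose uptake and fatty acid oxidation, and restrains lipid and protein synthesis. Its activity is set largely by this phosphorylation, which RNA sequencing does not measure.

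The libraries held 10838184 to 12831598 reads assigned to genes, so 1 read was worth 0.0779 to 0.0923 CPM. OP replicate 2 stood apart from the other 5 libraries. The chi-square of reads per gene between libraries of the same group was 22.3 and 24.2 in the pairs with this library and 5.66 to 6.48 in the other 4 pairs, where counting noise alone would give 1. Single markers stood out in it: Col1a1 was at 882.7 CPM (269 to 311 CPM in the others), Postn at 384.85 CPM (36.15 to 61.25 CPM) and Myl1 at 57.9 CPM (2.45 to 9.55 CPM). The lists of Col1a1, Postn and Myl1 did not move as a whole. The fibroblast markers Dcn, Lum and Pdgfra lay within the range of the other libraries. Tcf21 was the lowest of the 6, as were the skeletal muscle markers Tnnt3 and Myh4, while Tnni2 was the highest (1.65 CPM, others 0.2 to 0.65 CPM). The atrial marker Nppa (2264.75 CPM, others 465.3 to 1219.7 CPM) and the macrophage marker Cd68 (15.2 CPM, others 5.45 to 9.55 CPM) were also highest in OP replicate 2. Their lists did not move as a whole either. The atrial markers Myl4, Myl7, Sln and Bmp10 lay within the range of the other libraries. So did the macrophage markers Csf1r, C1qa, Adgre1 and Mrc1, while C1qb (20.3 CPM) and Cd163 (6.25 CPM) were lowest in OP replicate 2. Cardiomyocyte markers were abundant in every library, summing to 46827 to 50748 CPM, and 0 of the 10 were called different between the groups. Results below for the genes tested are given with and without OP replicate 2 where it matters. The difference of Adipoq, which was under the filter, was not refitted without it.

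Across the 8 members tested, none differed between OP and OR hearts at an adjusted p under 0.05 (limma with a mean-variance trend, Benjamini-Hochberg over 13445 genes), against 457 of all genes tested, or 3.4%. The nearest was Prkaa2, the catalytic alpha2 subunit that predominates in adult heart muscle, with an estimate 28.4% below OR in OP hearts (95% interval -42.1% to -11.3%, n = 3 and 3). It was the single member of the 8 with an unadjusted p under 0.05 (22.4% of all genes tested had such a p, 11.6% with the lower level in OP). Voom on the recovered reads called 0 of the 8, and 0 passed an unadjusted p under 0.05 with an absolute log2 fold change over 1, which 2.2% of all genes did. The fitted log2 fold change was below 0 for 6 members and above 0 for 2, with a median of -0.13 beside 0.01 over all genes, of which 49% were below 0. Each OP library lay below each OR library for 3 members, Prkaa2, Prkab1 and Appl1, a pattern that 17.7% of all genes tested showed (14.1% after TMM scaling, which corrects each library for its composition and left the same 3 apart). The opposite pattern was seen for 0 members and 10.4% of all genes, so that 28.1% did not overlap in either direction. Fewer cells of a type and less RNA per cell cannot be told apart in such tissue extracts.

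**Figure D1:**
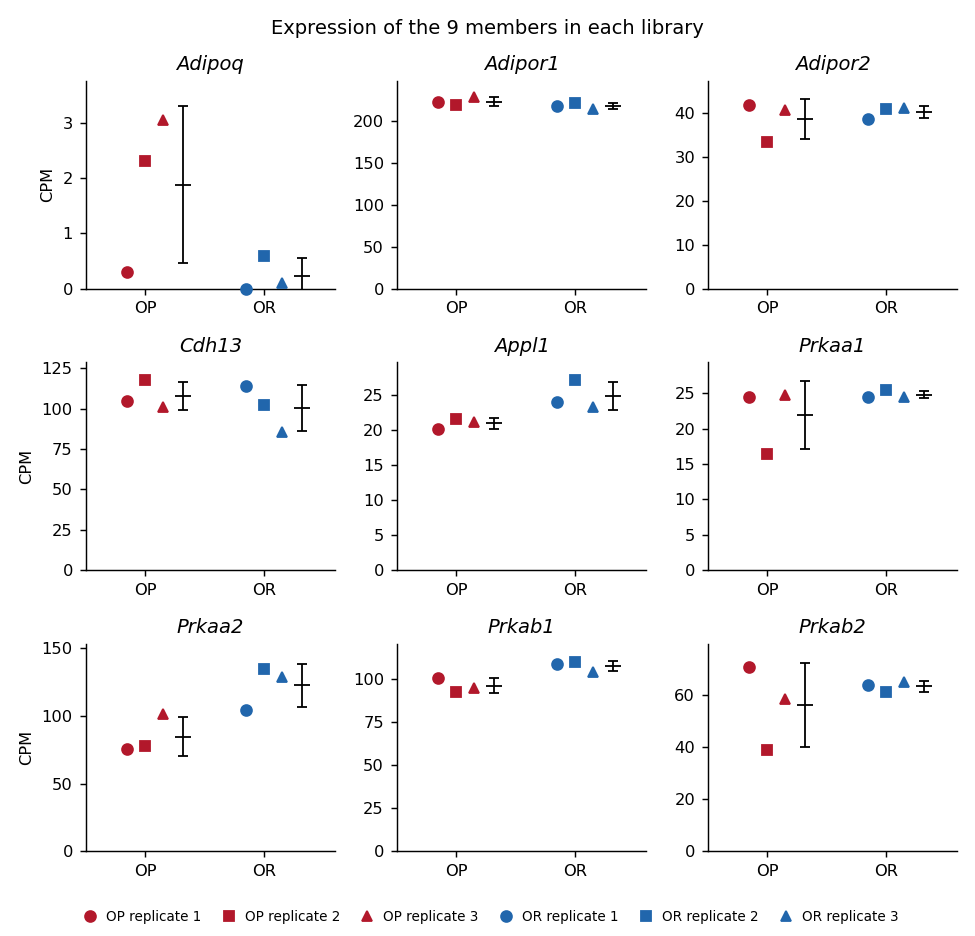
CPM (vertical axes, starting at 0) of the 9 members in each of the 6 libraries, OP in red and OR in blue, with the mean and SD of each group of 3 as black bars. Prkaa2 ran from 75.25 to 100.95 CPM in OP and from 104.0 to 134.35 CPM in OR, while OP replicate 2 (red square) was the lowest library for Adipor2, Prkaa1, Prkab1 and Prkab2.

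Adipoq (ENSRNOG00000001821), the gene of the hormone itself, had few reads in all 6 hearts. It was read 3, 25 and 39 times in OP replicates 1, 2 and 3, or 0.3, 2.3 and 3.05 CPM. In OR replicates 1, 2 and 3 it was read 0, 7 and 1 times, or 0, 0.6 and 0.1 CPM. OP replicates 2 and 3 thus stood above the rest, and OP replicate 1 lay among the OR hearts, so the groups overlapped. In sum there were 67 reads in OP and 8 in OR. In OR replicate 1, which had 0 reads, 3 reads would equal 0.277 CPM. The intervals for counting error alone (exact Poisson, 95%) were 1.46 to 3.34 CPM in OP replicate 2 and 0.24 to 1.21 CPM in OR replicate 2. The upper limit in OR replicate 1 was 0.34 CPM. These intervals leave out any copies made by PCR and the variation between rats. On the log2 scale, after addition of 0.2 CPM, the groups differed by 2.17, with p = 0.2 in a two-sided exact permutation test over the 6 libraries, where the smallest possible p is 0.1. When every gene with a read was fitted, limma gave the same difference with an adjusted p of 0.178.

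Several other genes of fat cells were as sparse. Of 15 adipocyte markers, 8 were under the filter (Plin1, Cidec, Lep, Retn, Adrb3, Thrsp, Acvr1c and Ucp1). Their reads summed to 9, 24 and 57 in OP replicates 1, 2 and 3 and to 7, 10 and 7 in the OR hearts. Plin1, which coats the lipid droplet of the fat cell, had 0, 7 and 15 reads in OP and 1, 3 and 1 in OR, and Cidec, a droplet fusion protein, had 1, 4 and 17 in OP and 1, 1 and 0 in OR. OP replicate 3 was highest for each of these and for Adipoq, while Acvr1c and Ucp1 had 0 reads in it. The other 7 markers passed the filter, and 1 of them was called higher in OP (Cidea, adjusted p = 0.0127 by limma), beside 1.53% of all genes tested. An unadjusted limma p under 0.05 was found for 5 of the 7, all higher in OP. It was found for 22.4% of all genes in either direction, which includes 11.6% with the lower level in OP. Each OP library lay above each OR library in CPM for 5 of the 7, as for 10.4% of all genes. The median log2 fold change of the 7 was 0.52, while Cfd, whose groups overlapped, was lower in OP (-0.15). In CPM OP replicate 1 was highest for Cidea, Fabp4, Plin4, Trarg1 and Aqp7, OP replicate 2 for Pck1 and OP replicate 3 for Cfd. These 7 include Fabp4, Plin4, Aqp7 and Cidea, which heart tissue expresses too, and the summed level of all 15 was 1034 to 1272 CPM in OP and 887 to 945 CPM in OR. What these cells contributed to the Adipoq reads was not tested.

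**Figure D2:**
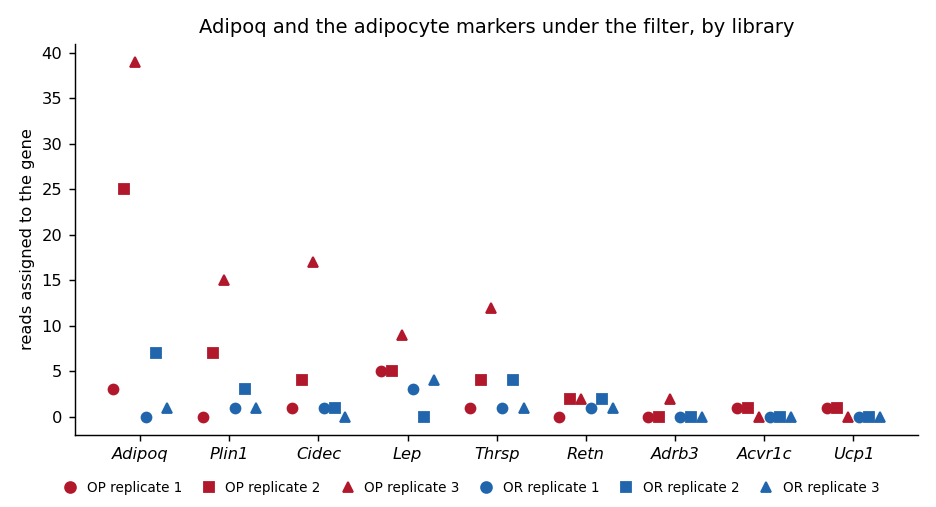
Reads (vertical axis) assigned in each library to Adipoq and to the 8 adipocyte markers under the filter, OP in red and OR in blue, 1 symbol shape per replicate number. OP replicate 3 (red triangle) had the most reads for Adipoq (39), Cidec (17), Plin1 (15), Thrsp (12) and Lep (9).

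The promoter of Adipoq is shown here because its base composition sets it apart from those of the AMPK subunits printed further on. RefSeq gives 8 of the 10 names a promoter in the GRCr8 assembly, which is not the Rnor 6.0 build of the reads, and the 250 bases before the start site are given with each CG dinucleotide in capitals. For Adipoq these are chr11:91240170-91240419, minus strand, 53.2% G and C, with 1 CG.
Adipoq: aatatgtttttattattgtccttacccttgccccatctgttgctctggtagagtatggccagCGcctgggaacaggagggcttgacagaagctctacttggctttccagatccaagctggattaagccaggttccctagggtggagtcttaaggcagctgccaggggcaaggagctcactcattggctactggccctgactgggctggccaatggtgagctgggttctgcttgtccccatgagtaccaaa
Of 33469 rat promoters of the same length, 7.83% held fewer CGs, and the median promoter held 5. On either strand the window held CCAAT, a motif found in 34% of all promoters, at 2 places and the E-box CANNTG, found in 65.5%, at 2 places. It had no match to the GC box GGGCGG, which 30.5% of promoters hold. These are matches of letters, and nothing in these data bears on binding.

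The receptors had close values in the 2 groups. Adipor1 (ENSRNOG00000004143), the receptor linked most closely to AMPK in muscle, was at 222.1, 218.4 and 228.3 CPM in OP and 217.3, 221.45 and 214.0 CPM in OR. The OP hearts overlapped with the OR hearts and the whole span was narrow. The fitted difference was 0.09 on the log2 scale (SE 0.06), or 6.22% higher in OP with a 95% interval from -3.89% to 17.4% (limma adjusted p = 0.447). After TMM scaling each OP library lay above each OR library, as did 15.5% of all genes tested. Adipor2 (ENSRNOG00000007990), which in mouse liver is linked more to PPAR-alpha signalling, was at 41.9, 33.5 and 40.8 CPM in OP and 38.7, 40.85 and 41.05 CPM in OR. OP replicate 2 was the lowest of the 6, and the other 5 lay within a few CPM of each other. The difference was -0.01 (SE 0.10), with an interval from -14.6% to 15.8% (limma adjusted p = 0.974). Its sign was not settled, since it turned to 0.06 when OP replicate 2 was left out and to 0.02 when OR replicate 3 was.

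A p above the threshold does not show that receptor levels were equal in the 2 groups, and the intervals above bound the differences that these libraries allow. The ratio of Adipor1 to Adipor2 within a library needs no scaling between libraries. It was 5.30, 6.52 and 5.60 in OP and 5.61, 5.42 and 5.21 in OR. OP replicate 2 was highest and the groups overlapped. The mean log2 ratio was 0.10 higher in OP (two-sided exact permutation p = 0.5, 0.75 adjusted over the 3 ratios computed, n = 3 and 3). Gene lengths were not used, so a ratio is compared between groups only and does not say which gene is expressed more.

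T-cadherin (Cdh13, ENSRNOG00000014371), a cadherin held in the membrane by a lipid anchor, retains adiponectin at the cell surface in heart and vessels. It was at 104.9, 117.45 and 101.2 CPM in OP and 113.95, 102.2 and 85.35 CPM in OR. The groups overlapped, with OP replicate 2 highest and OR replicate 3 lowest. The difference was 0.16 on the log2 scale (SE 0.12), with an interval from -7.55% to 35.2% in OP (limma adjusted p = 0.459). It narrowed to 0.07 without OP replicate 2 and to 0.06 without OR replicate 3. Smooth muscle and pericyte markers, some of whose cells carry T-cadherin, summed to 1242 to 1504 CPM in OP and 1132 to 1223 in OR. Of the 10, 1 was called higher in OP, a channel subunit of pericytes (Kcnj8, limma adjusted p = 0.0197), beside 1.53% of all genes tested. An unadjusted limma p under 0.05 with the higher level in OP was found for 8 of the 10. Such a p in either direction was found for 22.4% of all genes, which includes 11.6% with the lower level in OP. Each OP library lay above each OR library in CPM for 7 of the 10, as for 10.4% of all genes. The median log2 fold change of this list was 0.34. Endothelial markers summed to 741 to 1104 CPM in OP and 781 to 931 CPM in OR, with 0 of 7 called. An unadjusted limma p under 0.05 was found for 2 of the 7, Kdr and Tek, both higher in OP (log2 fold change 0.40 and 0.37). In CPM each OP library lay above each OR library for 0 of the 7. After TMM scaling Kdr and Tek showed this, as did 15.5% of all genes tested. The median log2 fold change of the 7 was 0.13. The part of these cells in the Cdh13 values was not tested.

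Appl1 (ENSRNOG00000013574), the adaptor that binds the inner face of the adiponectin receptors, was at 20.1, 21.55 and 21.05 CPM in OP and 24.0, 27.05 and 23.3 CPM in OR. All 3 OP hearts lay below all 3 OR hearts, with a gap between the groups smaller than the spread within OR. The difference was -0.19 (SE 0.10), with an interval from -25.3% to 2.97% in OP, with an unadjusted p of 0.0963 and a limma adjusted p of 0.306. It stayed below 0 when any of the 6 libraries was left out, between -0.24 and -0.13, with adjusted p from 0.214 to 0.600. Appl1 was therefore separated in its values and not called.

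**Figure D3:**
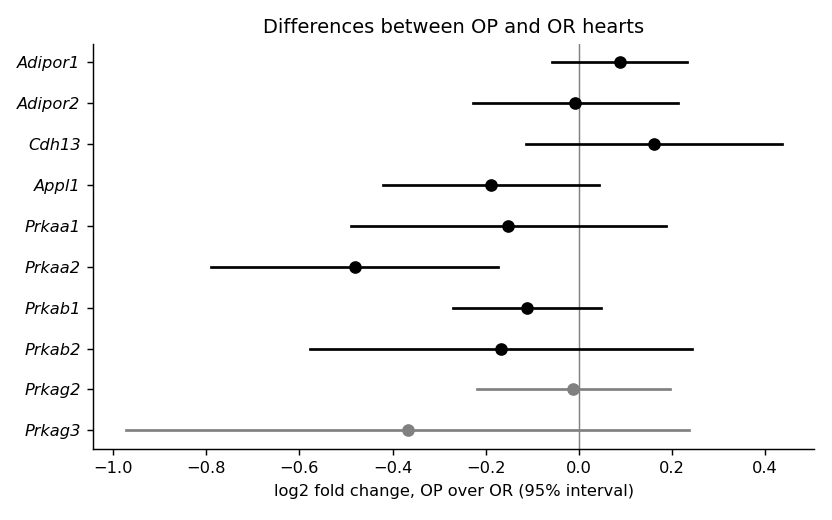
Fitted log2 fold change (horizontal axis, OP over OR) and its 95% interval for the 8 members tested (black) and for the AMPK gamma subunit genes Prkag2 and Prkag3 (grey). The interval of Prkaa2, around -0.48, is the single one among these 10 that lies wholly on 1 side of 0.

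The alpha subunits carry the kinase domain of AMPK. Prkaa2 (ENSRNOG00000007706), encoding alpha2, was at 75.25, 77.65 and 100.95 CPM in OP, or 84.6 ± 14.2 CPM (SD, n = 3). It was at 104.0, 134.35 and 128.2 CPM in OR, or 122 ± 16.0 CPM (SD, n = 3). The groups did not overlap, although OP replicate 3 and OR replicate 1 were only a few CPM apart. The log2 fold change was -0.48 (SE 0.13), with an unadjusted p of 0.00687 and a limma adjusted p of 0.0943, at rank 979 of the 13445 genes by p. Of all genes tested, 12.8% had a larger absolute log2 fold change. Leaving out each library in turn gave values from -0.60 to -0.40 and adjusted p from 0.0666 to 0.287, and without OP replicate 2 the value was -0.45. The fitted value thus kept its direction in each of these refits and passed the threshold in none.

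Prkaa1 (ENSRNOG00000012799), encoding the more widely expressed alpha1, was at 24.55, 16.4 and 24.8 CPM in OP and 24.5, 25.45 and 24.55 CPM in OR. The other 5 hearts were nearly equal, and OP replicate 2 was low. The difference was -0.15 (SE 0.15), with an interval from -28.8% to 13.8% in OP (limma adjusted p = 0.576), and it was 0.01 without OP replicate 2. The ratio of Prkaa1 to Prkaa2 was 0.326, 0.211 and 0.246 in OP and 0.236, 0.189 and 0.191 in OR. OP replicates 1 and 3 had the highest ratios, and OP replicate 2 lay below OR replicate 1, so the groups overlapped. The mean log2 ratio was 0.33 higher in OP (two-sided exact permutation p = 0.2, 0.6 adjusted over 3 ratios, n = 3 and 3). With each library left out in turn this difference ran from 0.16 (without OP replicate 1) to 0.47 (without OP replicate 2). A difference in alpha composition between the groups was thus not shown at this sample size, at which the smallest possible p is 0.1.

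The promoters of the alpha genes are shown because these genes encode forms of the same subunit. Both are rich in CG, given again in capitals. Prkaa1 (GRCr8 chr2:55967525-55967774, plus strand) had 45 CGs and 86.4% G and C.
Prkaa1: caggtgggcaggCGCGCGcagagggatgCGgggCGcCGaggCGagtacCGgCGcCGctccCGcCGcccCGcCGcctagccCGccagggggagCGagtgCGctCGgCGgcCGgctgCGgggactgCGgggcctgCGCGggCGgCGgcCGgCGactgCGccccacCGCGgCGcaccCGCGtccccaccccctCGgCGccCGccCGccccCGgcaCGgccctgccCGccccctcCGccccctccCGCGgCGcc
Prkaa2 (GRCr8 chr5:125108325-125108574, minus strand) had 33 CGs and 72.8% G and C. The start site used for Prkaa2 lies 686 bases from the outermost start annotated for the gene, against 9 bases for Prkaa1.
Prkaa2: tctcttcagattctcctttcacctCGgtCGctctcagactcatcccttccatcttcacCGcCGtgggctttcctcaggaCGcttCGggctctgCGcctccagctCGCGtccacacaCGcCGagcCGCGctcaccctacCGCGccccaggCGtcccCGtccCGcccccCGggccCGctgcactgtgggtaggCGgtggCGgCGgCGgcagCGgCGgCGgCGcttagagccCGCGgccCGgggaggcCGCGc
Of all rat promoters, 99.6% held fewer CGs than that of Prkaa1 and 96.4% fewer than that of Prkaa2. The GC box GGGCGG stood at 6 places on either strand of the Prkaa1 window and at 1 place in that of Prkaa2. Of the other matched members, Adipor1, Prkab1, Prkab2 and Prkag1 had 29, 26, 31 and 17 CGs, and Adipor2 had 0 in a window that lies 49162 bases from the outermost start annotated for the gene. The composition of a promoter was not related to the change between groups by any test.

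The beta subunits hold the complex together and bind glycogen. Prkab1 (ENSRNOG00000001142), encoding beta1, was at 100.9, 92.3 and 95.1 CPM in OP and 109.1, 109.75 and 104.1 CPM in OR. Each OP heart lay below each OR heart, and the gap was small in proportion to the level. The difference was -0.11 (SE 0.07), with an interval from -17.1% to 3.27% in OP (limma adjusted p = 0.374), and -0.11 again without OP replicate 2. Prkab2 (ENSRNOG00000018166), encoding beta2, the form typical of striated muscle, was at 70.8, 38.95 and 58.55 CPM in OP and 64.05, 61.1 and 65.2 CPM in OR. The OP hearts were scattered, with the highest and the lowest value of all 6 among them. The SD was 16.1 CPM in OP and 2.11 CPM in OR (n = 3 each). The difference was -0.17 (SE 0.18, limma adjusted p = 0.615) and turned to 0.05 without OP replicate 2.

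The ratio of Prkab1 to Prkab2 was 1.43, 2.37 and 1.62 in OP and 1.70, 1.80 and 1.60 in OR. OP replicate 2 was far above the others, whose groups overlapped. The mean log2 ratio was 0.06 higher in OP (two-sided exact permutation p = 0.9, also 0.9 adjusted over 3 ratios, n = 3 and 3), and the difference was -0.16 without OP replicate 2. The beta ratio therefore had no sign that held over the libraries.

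Of the gamma subunits, which bind AMP, ADP and ATP, Prkag2 and Prkag3 had rows. Prkag2, mutated in a human cardiomyopathy with glycogen storage, was at 55.95, 52.4 and 48.05 CPM in OP and 57.15, 53.1 and 53.05 CPM in OR. The groups overlapped, and the difference was -0.01 (limma adjusted p = 0.958). Prkag3, known from glycolytic skeletal muscle, was at 11.2, 5.45 and 12.1 CPM in OP and 12.65, 10.95 and 13.0 CPM in OR. OP replicate 2 was low here too, and the groups overlapped. The difference was -0.37 (SE 0.26, limma adjusted p = 0.444) and shrank to -0.04 without OP replicate 2.

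OP replicate 2 was the lowest of the 6 libraries for 4 of the 8 members tested, Adipor2, Prkaa1, Prkab1 and Prkab2. It was lowest for 35.9% of all genes tested, and after TMM scaling for 3 members and 27.4% of all genes. The directions of Adipor2, Prkaa1 and Prkab2 changed when it was left out, whereas those of Adipor1, Cdh13, Appl1, Prkaa2 and Prkab1 did not. With or without it, 0 of the 8 members were called.

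**Figure D4:**
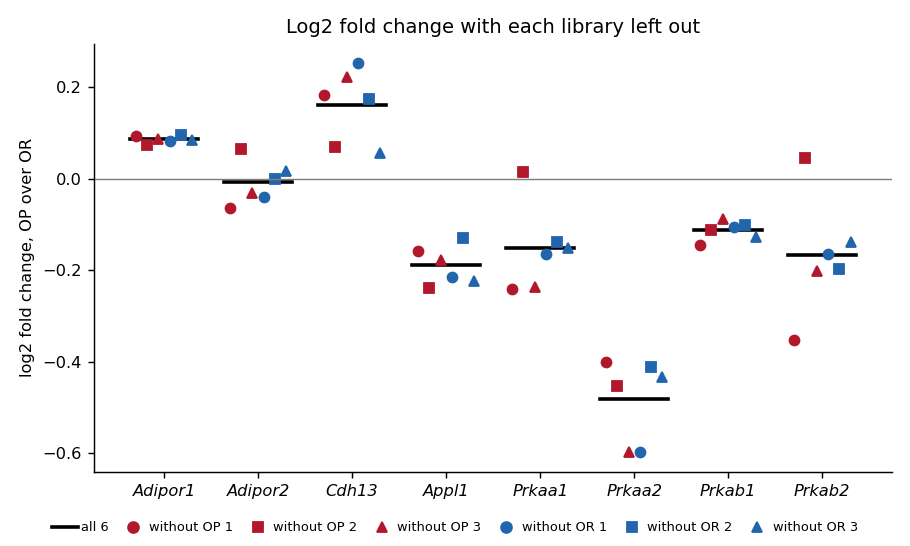
Log2 fold change (vertical axis, OP over OR) of the 8 members tested with all 6 libraries (black bars) and with each library left out (symbols, colour and shape by the library removed). Without OP replicate 2 (red square) Adipor2, Prkaa1 and Prkab2 moved above 0 to 0.06, 0.01 and 0.05, while Prkaa2 stayed between -0.60 and -0.40.

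Around the members, 89 other genes of the pathway were listed in 6 groups. Of these 86 had a row and 76 passed the filter. In all, 0 were called higher and 2 lower in OP hearts, or 2.63%, beside 1.53% higher and 1.87% lower over all genes tested, and their median log2 fold change was -0.00. Over all genes tested 45.1% of the calls were higher in OP, or 33.1% without rescaling of the libraries. Both called genes lost the call in some of the refits given beside them.

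Ppargc1a, encoding PGC-1alpha, a coactivator of mitochondrial biogenesis that AMPK phosphorylates, fell in OP hearts. It was at 39.4, 34.5 and 43.2 CPM in OP and at 51.9, 59.15 and 66.3 CPM in OR. The groups were well apart. The log2 fold change was -0.54 (SE 0.12, limma adjusted p = 0.0478), lower in each OP heart than in each OR heart. The adjusted p was 0.0467 without OP replicate 2 and rose to between 0.0668 and 0.185 when any of the other 5 libraries was left out. With all 6 libraries the call was also lost under voom (0.0514) and without a filter on low values (0.0547), both adjusted p from limma. Ppargc1a was the 1 called gene of 23 tested among AMPK substrates and genes it acts on, whose median was -0.06.

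Others in this group pointed either way and were not called. Mlycd, encoding malonyl-CoA decarboxylase, which removes the inhibitor of fatty acid entry into mitochondria, was at 296.85, 234.4 and 299.85 CPM in OP and 212.4, 228.75 and 228.3 CPM in OR. The groups did not overlap, with OP replicate 2 the nearest to OR. The difference was 0.36 (limma adjusted p = 0.0817), and 0.44 with an adjusted p of 0.00871 without OP replicate 2. Mtfr1l, a regulator of mitochondrial shape that AMPK phosphorylates, had a difference of 0.23 (limma adjusted p = 0.103).

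Paqr6, a membrane progestin receptor of the progestin and adipoQ receptor family to which Adipor1 and Adipor2 belong, also fell. It was at 18.05, 13.05 and 16.3 CPM in OP and 26.5, 28.0 and 25.75 CPM in OR. Each OP heart was well below each OR heart. The log2 fold change was -0.71 (SE 0.12, limma adjusted p = 0.0249). Without OP replicate 2 the adjusted p was 0.0153, while without OP replicate 3 or any of the 3 OR hearts it lay between 0.0577 and 0.115. Paqr7, another membrane progestin receptor, lay the other way at 21.3, 25.65 and 20.75 CPM in OP and 16.65, 15.35 and 15.75 CPM in OR, without overlap (log2 fold change 0.54, limma adjusted p = 0.058). Of this family 6 genes were tested, with a median of 0.17, and Paqr8 had a difference of 0.49 (limma adjusted p = 0.357).

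Upstream of AMPK 18 genes were tested and 0 called, with a median of 0.05. Stk11, encoding the activating kinase LKB1 and named here after its values were seen, was at 118.55 to 122.4 CPM in OP and 125.45 to 132.1 CPM in OR, without overlap in CPM (as for 17.7% of all genes) but with overlap after TMM scaling, and its fitted difference was -0.03 (limma adjusted p = 0.793). Ppm1a, a phosphatase that can remove the activating phosphate, had the smallest p of this group. It was at 131.6, 135.8 and 119.55 CPM in OP and 110.3, 111.6 and 102.55 CPM in OR, without overlap (log2 fold change 0.30, limma adjusted p = 0.0958). Ppm1e, a related phosphatase, had a log2 fold change of -0.40 and the stress protein gene Sesn2 of 0.26 (limma adjusted p = 0.313 and 0.412).

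Among kinases related to AMPK that LKB1 also activates, 11 were tested and 0 called, with a median of 0.00. Sik1, a salt-inducible kinase, was at 48.4, 56.2 and 57.0 CPM in OP and 100.15, 70.5 and 79.65 CPM in OR. The groups did not overlap, and OR replicate 1 was far above the rest. The log2 fold change was -0.57 (limma adjusted p = 0.0659), with adjusted p of 0.0404 without OP replicate 2 and 0.0497 without rescaling of the libraries. Nuak2 had a log2 fold change of -0.40 and Snrk, an AMPK-related kinase of heart muscle, of 0.20 (limma adjusted p = 0.186 and 0.217).

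Among relatives of adiponectin and genes of its folding, binding and ceramidase function, 16 were tested and 0 called, with a median of -0.03. Asah2, encoding a neutral ceramidase, was at 22.4, 22.1 and 23.15 CPM in OP and 28.45, 28.05 and 30.05 CPM in OR. The groups did not overlap and each was tight (log2 fold change -0.30, limma adjusted p = 0.104). Acer2, an alkaline ceramidase of the Golgi, was at 51.3, 84.45 and 44.3 CPM in OP and 39.5, 41.05 and 34.85 CPM in OR (log2 fold change 0.64, limma adjusted p = 0.158). C1qtnf5, a relative of adiponectin with the same C1q domain, was at 10.15, 17.2 and 8.3 CPM in OP and 8.25, 7.1 and 6.05 CPM in OR (log2 fold change 0.71, limma adjusted p = 0.174). OP replicate 2 was far the highest for the last pair, and without it the log2 fold changes were 0.34 and 0.39.

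**Figure D5:**
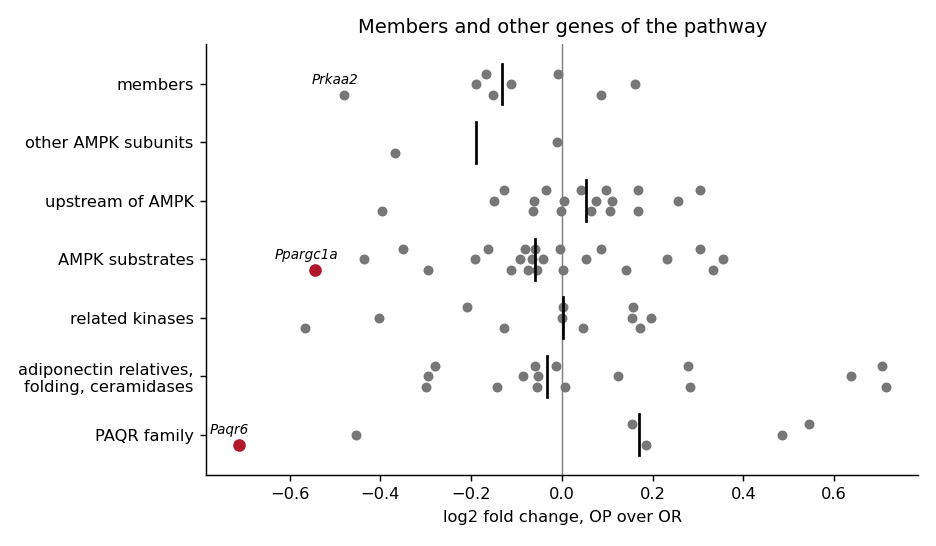
Log2 fold change (horizontal axis, OP over OR) of each gene tested among the members and the 6 groups of other pathway genes, with called genes in red, others in grey, and the median of each group as a black bar. The 2 called genes, Ppargc1a (-0.54) and Paqr6 (-0.71), lie at the left, and the medians of the 6 groups lie between -0.19 and 0.17.

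Some genes had a profile over the 6 libraries close to that of a member. For Prkaa2 the 5 highest correlations of log2 values among 13444 genes were those of Irgq, Ccdc163, Ampd3, Fcgbp and Adra1a, each with a Pearson r of 0.99, and 105 genes had an r above 0.95. Ampd3, encoding an AMP deaminase, was at 79.95, 81.7 and 95.75 CPM in OP and 101.8, 113.3 and 111.95 CPM in OR, and Adra1a, the alpha1A-adrenergic receptor, at 14.85, 16.05 and 21.9 CPM and 24.75, 31.2 and 29.75 CPM. Both followed the order of Prkaa2, with OP replicate 3 highest in OP and OR replicate 1 lowest in OR, and were not called (limma adjusted p = 0.113 and 0.0662). For Adipoq the 5 nearest were LOC108348098, Epb41, Abhd11, Ptov1 and Ube2l6, with r from 0.97 to 0.99, and 22 genes had an r above 0.95. These are the highest of many correlations over 6 libraries that share the group difference, and are given as a description.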

How the data were processed

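Per the labels and the methods of the study, the authors prepared TruSeq libraries, trimmed reads with Trimmomatic, mapped them to Rnor 6.0 with STAR 2.5.3a and obtained reads per gene with HTSeq 0.9.1 (Ensembl release 103). Whether counting used strand is not stated in those sources, so a gene and one overlapping it in antisense may share reads. Each deposited value is a score, which the authors made by scaling the reads of a gene to 20000000 in its library and rounding up. Dividing by 20 gives CPM.

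Reads were recovered from these scores (99.75% to 99.88% of the values above 0 were matched with no remainder by some whole read number after scaling and rounding up), 10838184 to 12831598 per library. TMM factors, with 30% of ratios and 5% of levels trimmed, rescaled the scores. After addition of 4 (equal to 0.2 CPM) their log2 was modelled on group with limma 3.58.1 (R 4.3.3), using a mean-variance trend, for each gene that reached 1 CPM in 3 or more libraries. Calls needed a Benjamini-Hochberg adjusted p-value under 0.05. The log2 fold changes understate those of sparse genes. Ratios were tested by exact permutation in Python 3.11.15 with SciPy 1.17.1. The fit was also run on simulated data with the same dispersion in every library. Those data held no library that stood apart as OP replicate 2 did, so they do not cover that feature.

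Members and lists were chosen with earlier results of these data known. The text names the members, every called gene of the lists, up to 3 genes per list with the smallest p, and the 5 genes most correlated with Adipoq and Prkaa2. Stk11 and single cell type markers were named after their values were seen. Where a symbol stood on several lines (192 symbols), the line with the most reads was used. Other scalings, pseudocounts, filters, variance models and left-out libraries were tried.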

Additional observations from a re-analysis of the deposited data

How the results depend on the processing

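Under each alternative that was run (scaling, pseudocount, filter, voom, robust variances, replicate block, each library left out, and the rule of an unadjusted p under 0.05 at an absolute log2 difference above 1), 0 of the members tested were called. Of 122 member values under alternatives, 118 kept their direction and side of the threshold and 4 reversed, namely Adipor2 without OP replicate 2 (0.065) and without OR replicate 3 (0.016), Prkaa1 without OP replicate 2 (0.015) and Prkab2 without OP replicate 2 (0.046). With each library left out in turn these ran from -0.065 to 0.065 for Adipor2, from -0.24 to 0.015 for Prkaa1 and from -0.35 to 0.046 for Prkab2. Prkag2 also reversed, at 0.061 without OP replicate 3 and 0.019 without OR replicate 1, in a range of -0.061 to 0.061. The log2 ratio of Prkab1 to Prkab2 reversed without OP replicate 2 (-0.16), in a range of -0.16 to 0.21. The adjusted p of Prkaa2 was 0.0635 to 0.287 over all alternatives. The log2 fold change of Adipoq without a filter was 3.05 with a pseudocount of 1 and 1.12 with 20 (limma adjusted p = 0.188 and 0.195), both chosen after seeing the data.

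The count of 2 called pathway genes was 1 without a filter and 1 with voom (Paqr6), 0 with the replicate block and 0 under the rule of unadjusted p and fold. With a library left out it ran from 0 to 6, with 6 without OP replicate 2 (C1qtnf9, Lrp1, Mlycd, Paqr6, Ppargc1a and Sik1), 1 without OP replicate 1, and 0 without OP replicate 3 or any OR replicate. The cause was not tested. Over all genes, 457 were called (45.1% of them higher in OP), 465 without rescaling (33.1% higher), 353 without a filter, 374 with voom and 271 with the replicate block. Left-out libraries gave 56 (without OR replicate 1) to 775 calls (without OP replicate 2).

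Replicate numbers are in the labels, but the deviations of same-numbered libraries correlated at only 0.059, 0.075 and 0.127, so the numbers were not taken as pairs. With the block, the adjusted p of Ppargc1a was 0.0543, that of Paqr6 0.0513 and that of Prkaa2 0.0635, and the log2 ratio differences were 0.33, 0.06 and 0.10 as before. OP replicates 1 and 2 did not correlate best with their own numbers, and OP replicate 3 did. The edgeR and DESeq2 alternatives were not run, because the deposited scores are rounded. With 3 rats per group an exact permutation test cannot give a p under 0.1.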
